A study of Mus musculus with 2 samples.

Results

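The 7 genes described here, Trem2, Apoe, Gpnmb, Spp1, Fabp5, Cd9 and Lgals3, form a gene set often used to recognise lipid-associated macrophages. They were picked by gene symbol out of the 32285 genes in the deposited count matrices, and all 7 were found in both libraries. The rule itself uses no measured value, but the members were chosen with earlier results of these data known. Lipid-associated macrophages were described in tissues where macrophages clear lipid and dying cells, such as fat, atherosclerotic arteries and injured nerve. Trem2 is the surface receptor that senses lipid and drives much of this state, Apoe carries lipid between cells and binds Trem2, and the other members take part in lysosomal function (Gpnmb), secreted signalling (Spp1, osteopontin), transport of fatty acids inside the cell (Fabp5), membrane organisation (Cd9) and repair of damaged lysosomes (Lgals3, galectin-3). In joints, macrophages with several of these genes are found in the inflamed synovium, and Spp1, Cd9 and Apoe are also made by bone, cartilage or nerve cells.

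The data were 2 single-cell RNA-seq (scRNA-seq) libraries of the temporomandibular joint (TMJ) of C57BL/6 mice, 1 per genotype: WT, and Prox1+/− mutant animals heterozygous for loss of Prox1, the transcription factor of lymphatic endothelium. Both groups were 8 to 10 weeks old, were female by the study's description and had received complete Freund's adjuvant (CFA, an oil with killed mycobacteria that inflames the joint) by injection into the joint. No library of an untreated joint was analysed here, and how many animals were pooled in a library is not given in the sources used here. With 1 library per genotype, genotype and library cannot be told apart, no test was possible, and the 95% intervals given in parentheses cover counting error only.

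The WT library held 5709 barcodes and 53517206 UMIs (unique molecular identifiers, 1 per captured RNA molecule), and the mutant library 7846 barcodes and 62446987 UMIs. After removal of barcodes with fewer than 500 genes or at least 10% mitochondrial UMIs, 4352 WT and 5757 mutant cells remained, with median depths of 6997 and 4848 UMIs, and 10 barcodes were shared by the libraries, 4 of them among the kept cells. Prox1 itself stood at 11.6 counts per 1000000 UMIs (CPM) in the kept WT cells (10.7 to 12.6) and at 5.80 CPM in the mutant cells (5.18 to 6.47), in the direction of the labels. Endothelial cells, the class that includes lymphatic vessels, numbered 1038 in WT and 520 in the mutant, and the part of these numbers in the Prox1 level was not tested. Of 45 clusters, 37 could be named for 18 cell types by their marker genes, and 8.73% of WT and 21.8% of mutant cells stayed unnamed. Cell type names stand for such marker-defined clusters, that is macrophage-like, neutrophil-like and so on.

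Macrophages made up 588 WT cells (13.5%) and 756 mutant cells (13.1%), and were among the deepest cells, with median depths of 16678.5 and 13970.5 UMIs. All 12 genes of the macrophage marker list were present in both libraries, at a summed 8494 CPM in WT and 7597 CPM in mutant macrophages. The members were kept out of the genes used for clustering. A second clustering of the macrophages together with the monocytes, 666 WT and 846 mutant cells, gave 3 named macrophage subsets. Inflammatory macrophages (260 WT and 199 mutant cells) were led by Mmp12, Cxcl3, H2-M2 and Spp1, and 3 of the 8 inflammatory markers were raised in them. Interferon-responding macrophages (154 and 179 cells) were led by genes that included Cxcl9 and Cxcl10, and resident-type macrophages (79 and 99 cells) by Mrc1, Ccl8 and Folr2. Monocytes (69 and 69 cells) and a few dendritic cells came apart from them. Of the remaining subclusters, 1 was led by neutrophil genes (41 and 172 cells) and 1 had no marker list raised (55 and 109 cells); both were shallow and were left unnamed.

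The promoter windows are those of RefSeq (GRCm38.p6), written 5′ to 3′ on the gene's own strand. Each reaches from 250 bases upstream to 50 bases downstream of a RefSeq start site. The gene spans given further below come from the GENCODE annotation, whose starts can differ. The Lgals3 window lies inside the gene span given below, chr14:47367751-47386160. Windows are printed for Trem2, Gpnmb and Cd9, which held a searched motif, and for Spp1 and Lgals3, which differed between the libraries and held none. Capitals mark a match to 1 of 3 motifs searched on both strands: CACGTG and CATGTG, letters bound by the lysosomal MiT/TFE factors, and TGANTCA, the AP-1 site, where N is any base.

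Trem2, chr17:48346151-48346450, plus strand: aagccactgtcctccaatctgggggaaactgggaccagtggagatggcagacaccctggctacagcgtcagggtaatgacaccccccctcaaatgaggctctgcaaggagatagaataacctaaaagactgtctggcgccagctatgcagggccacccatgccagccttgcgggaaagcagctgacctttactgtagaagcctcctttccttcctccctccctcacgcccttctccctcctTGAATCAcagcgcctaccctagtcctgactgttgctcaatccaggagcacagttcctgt
Gpnmb, chr6:49036268-49036567, plus strand: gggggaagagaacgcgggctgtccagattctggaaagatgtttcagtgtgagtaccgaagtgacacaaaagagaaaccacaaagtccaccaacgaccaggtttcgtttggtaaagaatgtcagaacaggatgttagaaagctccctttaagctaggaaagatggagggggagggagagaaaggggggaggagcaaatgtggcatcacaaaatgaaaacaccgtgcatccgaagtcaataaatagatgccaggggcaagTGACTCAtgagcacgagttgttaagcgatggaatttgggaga
Cd9, chr6:125494711-125495010, minus strand: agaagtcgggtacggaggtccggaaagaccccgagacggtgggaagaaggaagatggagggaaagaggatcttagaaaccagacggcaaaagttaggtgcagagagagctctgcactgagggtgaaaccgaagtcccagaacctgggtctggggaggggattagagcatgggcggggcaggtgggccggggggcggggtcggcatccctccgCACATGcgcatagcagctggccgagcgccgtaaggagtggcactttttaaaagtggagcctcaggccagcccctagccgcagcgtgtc
Spp1, chr5:104434861-104435160, plus strand: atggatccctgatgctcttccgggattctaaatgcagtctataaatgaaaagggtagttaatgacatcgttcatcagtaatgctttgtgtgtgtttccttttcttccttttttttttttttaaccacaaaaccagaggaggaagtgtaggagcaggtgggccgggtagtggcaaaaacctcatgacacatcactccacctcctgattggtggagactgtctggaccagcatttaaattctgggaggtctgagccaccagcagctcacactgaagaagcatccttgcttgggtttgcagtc
Lgals3, chr14:47373610-47373909, plus strand: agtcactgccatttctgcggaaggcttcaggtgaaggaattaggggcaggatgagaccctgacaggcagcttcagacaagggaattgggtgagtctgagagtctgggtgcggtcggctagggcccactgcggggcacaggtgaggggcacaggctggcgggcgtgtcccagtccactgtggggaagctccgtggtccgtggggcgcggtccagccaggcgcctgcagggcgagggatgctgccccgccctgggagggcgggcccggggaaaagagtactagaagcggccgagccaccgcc

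The Trem2 and Gpnmb windows each held an AP-1 match, upstream of the Trem2 start site and just downstream of the RefSeq start site of Gpnmb. The Gpnmb match lies upstream of the gene start given below. The Cd9 window held CACATG, the reverse complement of CATGTG, upstream of its start site. None of the matches overlapped another motif, and the windows of Spp1, Lgals3 and Apoe held none of these letters. Of all 32851 mouse promoter windows of this length, 7.81% held TGANTCA, 14.2% held CATGTG and 7.15% held CACGTG. These matches describe letters in a window and are no evidence of binding. RefSeq windows were found for 6 of the 7 members, and Fabp5 is named only.

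Trem2 was the member most restricted to macrophages. The gene (ENSMUSG00000023992) lies at chr17:48346401-48354147 on the plus strand of GRCm38. It stood at 328 CPM in WT macrophages (318 to 338) and at 233 CPM in mutant macrophages (225 to 241), ahead of neutrophils at 60.1 and 58.7 CPM, the next cell type in both libraries. Macrophages held 90.6% of all Trem2 UMIs of the WT cells and 82.3% of those of the mutant cells. T cells, granulocyte-monocyte progenitors and monocytes followed between 34.6 and 47.3 CPM in WT, with intervals that overlapped from each type to the next. Trem2 was not detected in 147 WT B cells, where 3 UMIs would have been 3.86 CPM.

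Gpnmb, a glycoprotein of lysosomes and the cell surface that MiT/TFE factors switch on under lysosomal stress, also peaked in macrophages. It lies at chr6:49036546-49070929 on the plus strand (ENSMUSG00000029816). Macrophages carried 358 CPM in WT (348 to 369) and 311 CPM in the mutant (302 to 321), and held 83.3% and 76.7% of all Gpnmb UMIs. The next value in WT, 157 CPM in T cells, rested on a single cell that held 90.5% of the UMIs of that group, and the next in the mutant, 103 CPM in neutrophils, drew 46.9% of its UMIs from 1 cell. Mesenchymal cells were the third in both libraries, at 95.7 and 70.9 CPM, and in their case no single cell held over 30% of the UMIs.

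Fabp5 and Lgals3 were likewise highest in macrophages. Fabp5 (chr3:10012548-10016607, plus strand, ENSMUSG00000027533) stood at 1685 CPM in WT macrophages (1662 to 1707) and 817 CPM in mutant macrophages (802 to 832). Its lead over the next cell type was 2.93-fold over T cells in WT and 1.30-fold over epithelial cells in the mutant, and 81.0% and 67.1% of the UMIs behind those second places came from 1 cell. Endothelial cells, in which Fabp5 is a known fatty acid carrier, stood at 360 CPM (WT, the third type) and 219 CPM (mutant, below dendritic cells, neutrophils and granulocyte-monocyte progenitors as well). Lgals3 (chr14:47367751-47386160, plus strand, ENSMUSG00000050335) reached 3011 CPM in WT macrophages (2981 to 3041) and 1844 CPM in mutant macrophages (1821 to 1867), followed by monocytes at 1649 and 1180 CPM and by granulocyte-monocyte progenitors at 851 and 827 CPM. It was lowest in osteoblasts and osteocytes, at 16.1 and 5.55 CPM.

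Spp1 was not highest in macrophages in either library. The gene lies at chr5:104435118-104441050 on the plus strand (ENSMUSG00000029304) and encodes osteopontin, a phosphoprotein of bone matrix that immune cells also secrete. Osteoblasts and osteocytes carried 4764 CPM in the 28 WT cells (4585 to 4949) and 8554 CPM in the 22 mutant cells (8309 to 8804), in the latter with 30.5% of the UMIs in 1 cell. Macrophages came next at 3714 CPM (3681 to 3747) and 1636 CPM (1615 to 1658), and chondrocytes were next at 955 and 1018 CPM. Because macrophages were far more numerous, they still held 83.7% of the Spp1 UMIs of the WT cells and 67.7% of those of the mutant cells.

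Apoe and Cd9 were shared with glia, Apoe mainly in the WT library. Apoe (chr7:19696109-19699188, minus strand, ENSMUSG00000002985) was highest in Schwann cells in WT, at 8430 CPM (8297 to 8564) against 4492 CPM in macrophages (4456 to 4528). In the mutant the order was the reverse, with 5906 CPM in macrophages (5866 to 5947) and 1188 CPM in Schwann cells (1113 to 1268). Adipocytes came second there at 3265 CPM, and neutrophils and dendritic cells also stood above Schwann cells. The WT Schwann cell value came from a cluster of 49 cells led by Fabp7 and Cdh19, which carried 25219 CPM. The mutant library held 14 cells of that cluster. Neutrophils held 2102 and 2158 CPM of Apoe, most of it in a neutrophil cluster led by Ccl8 (41 WT and 234 mutant cells) with 5931 and 4677 CPM, and the 12 macrophage markers summed to 2336 and 2498 CPM in neutrophils. The part of those markers in this value was not tested. Cd9 (chr6:125460266-125494791, minus strand, ENSMUSG00000030342), a tetraspanin that organises membrane partners, was highest in Schwann cells at 3500 and 2920 CPM, then in chondrocytes at 1188 and 1078 CPM. Macrophages were the third in WT at 995 CPM (978 to 1012) and the fourth in the mutant at 669 CPM (656 to 683), where their interval overlapped that of epithelial cells. Macrophages held only 35.6% and 34.4% of all Cd9 UMIs.

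**Figure D1:**
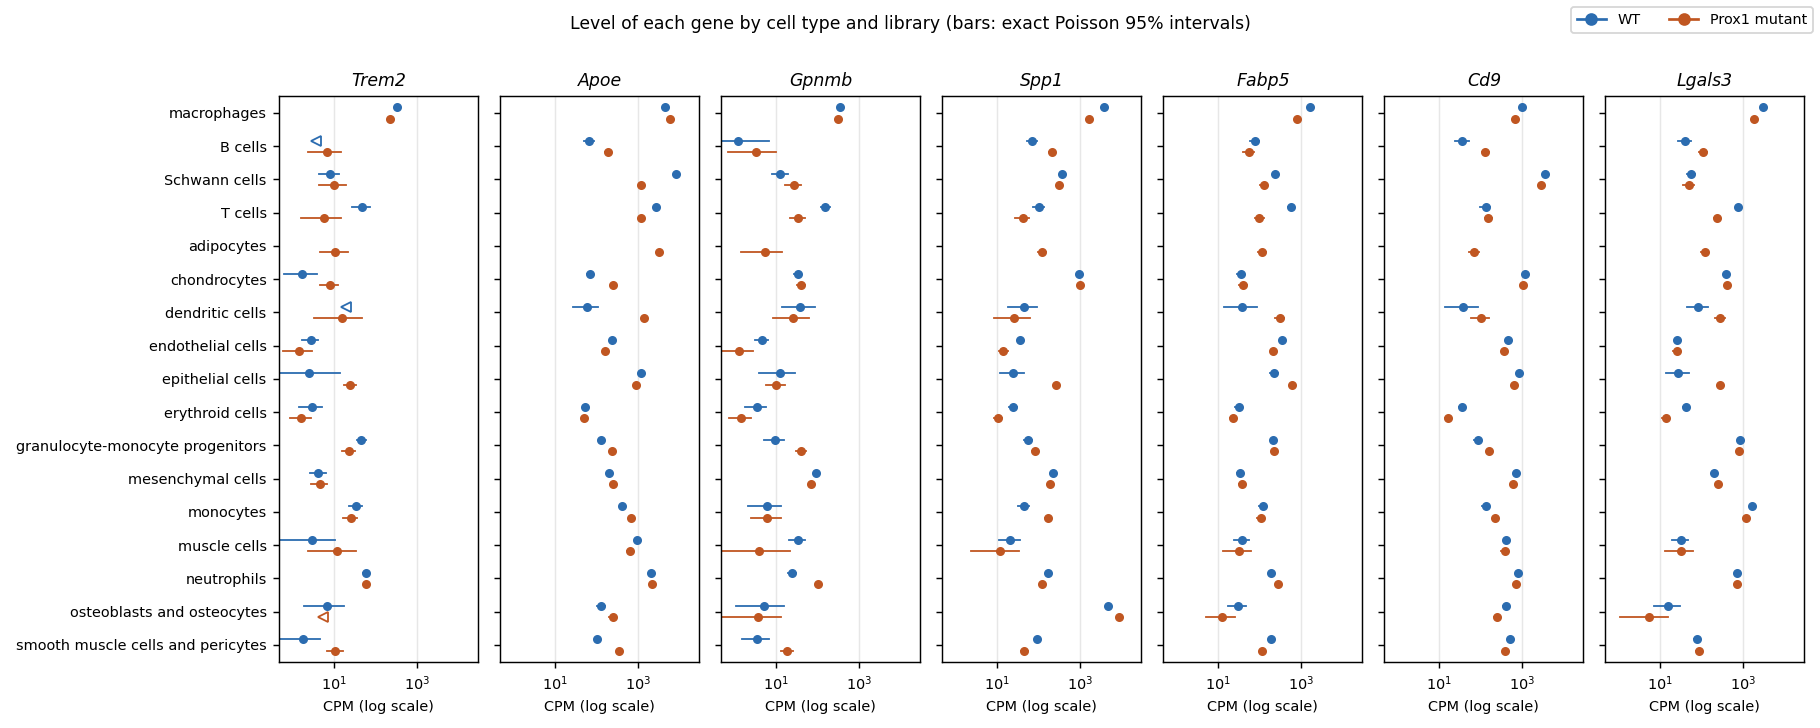
Level of each of the 7 genes in CPM (log axis) in every named cell type with at least 20 cells, WT and Prox1+/− libraries as separate points with 95% counting intervals; open triangles mark groups with no UMI, drawn at the level that 3 UMIs would give, and axes start at 0.5 CPM. Macrophages are at the top for Trem2, Gpnmb, Fabp5 and Lgals3 in both libraries, osteoblasts and osteocytes for Spp1, and Schwann cells for Cd9.

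In droplet data, free RNA adds UMIs to cells that do not express a gene, and B cells were taken as a reference for such background. Whether B cells express any of the 7 genes themselves was not tested. With every cell thinned to 2000 UMIs, the share of WT B cells with a UMI was 0% for Trem2, 0% for Gpnmb, 7.56% for Lgals3, 8.40% for Cd9, 10.9% for Fabp5, 16.0% for Apoe and 16.0% for Spp1. In WT macrophages the thinned shares were 38.9%, 22.7%, 89.7%, 63.6%, 55.6%, 80.6% and 49.4% in the same order, and without thinning 82.7%, 47.3%, 95.6%, 84.4%, 75.7%, 92.3% and 70.6%. All 7 members thus stood above the B cell share in macrophages of the WT library, and in the mutant library the smallest margin was that of Gpnmb, 18.0% against 1.06%. The B cells had median depths of 4013 UMIs in WT and 4827 UMIs in the mutant before thinning. Without thinning, 27.2% of WT and 12.6% of mutant B cells held a Spp1 UMI. Their summed Spp1 level went the other way, 2.98-fold higher in mutant B cells (70.8 CPM for WT, 211 CPM for mutant). Mutant B cells also held 2.81-fold more Apoe, 3.58-fold more Cd9 and 2.69-fold more Lgals3, while Fabp5 was 1.40-fold lower. Thus 4 of the 5 members with enough UMIs were at least 1.5-fold higher, beside 15.7% of all genes tested there. The part of such background in the macrophage levels was not tested. Monocytes had thinned Spp1 shares of 7.89% in WT and 8.14% in the mutant, not above the 16.0% and 8.51% of B cells. Their summed Spp1 level was higher in the mutant library, at 171 CPM (147 to 197) against 45.8 CPM (33.4 to 61.3) for WT. Whether the Spp1 of monocytes was background was not tested.

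Between macrophage subsets, the members did not move as a block. Spp1 and Cd9 were at least 2-fold higher in inflammatory than in resident-type macrophages in both libraries, Apoe was at least 2-fold lower, and the other 4 members passed neither limit. Of 8567 genes with enough UMIs in both subsets, 5.46% were at least 2-fold higher in both libraries and 6.72% at least 2-fold lower, beside 2 and 1 of the 7 members. The clustering used genes that vary across the same cells, so these values describe the subsets and were not tested.

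Among the members, Spp1 differed most between inflammatory and resident-type macrophages, though not evenly over the inflammatory subset, as a finer split below shows. It stood at 5209 CPM in inflammatory, 752 CPM in interferon-responding and 150 CPM in resident-type macrophages of the WT library. The mutant values were 2884, 235 and 594 CPM. The difference between inflammatory and resident-type macrophages was thus log2 5.11 (4.89 to 5.35) in WT and log2 2.28 (2.20 to 2.36) in the mutant. The mutant resident-type value was drawn up by few cells, with 35.2% of its UMIs in 1 cell, and on the scale of cells with a UMI after thinning Spp1 was found in 74.5% of inflammatory against 18.2% of resident-type cells in WT and in 52.0% against 13.1% in the mutant. Without thinning the shares were 93.5% against 46.8% and 77.4% against 31.3%. The intervals of the resident-type shares overlapped those of the B cells.

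Cd9 followed the same direction with a smaller difference. It was 1272 CPM in inflammatory, 411 CPM in interferon-responding and 214 CPM in resident-type macrophages of the WT library, and 994, 358 and 264 CPM in the mutant. Inflammatory macrophages were log2 2.57 (2.38 to 2.77) above resident-type ones in WT and log2 1.91 (1.79 to 2.04) in the mutant. Every one of the 260 WT inflammatory macrophages held at least 1 Cd9 UMI, as did 98.5% of the mutant ones.

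Apoe ran the other way. Resident-type macrophages carried 12144 CPM in the WT library and 11496 CPM in the mutant one, interferon-responding ones 8863 and 9368 CPM, and inflammatory ones 2517 and 2974 CPM. The inflammatory subset was lower than the resident-type subset by log2 2.27 in WT and 1.95 in the mutant (signed values −2.27, −2.30 to −2.24, and −1.95, −1.98 to −1.92). Apoe UMIs outnumbered Spp1 UMIs 1.21 to 1 over all WT macrophages and 3.61 to 1 over all mutant macrophages.

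Trem2, Fabp5, Lgals3 and Gpnmb were spread over all 3 subsets. Trem2 was 356, 231 and 431 CPM in inflammatory, interferon-responding and resident-type macrophages of the WT library and 253, 148 and 397 CPM in the mutant, so that the resident-type cells were the highest in both. Lgals3 was highest in the inflammatory subset, at 3562 CPM in the WT and 2331 CPM in the mutant library, against 2167 and 2080 CPM in the resident-type subset. Fabp5 in the WT library was 1568, 1869 and 2046 CPM over the 3 subsets, and in the mutant 810, 792 and 1027 CPM. The thinned shares of cells with a Fabp5 UMI, given below, were instead lowest in the resident-type subset. Between inflammatory and resident-type macrophages, the Fabp5 ratio kept its direction under 6 of 13 processing alternatives in WT and 10 of 13 in the mutant, so no order is read from it. Gpnmb was 357, 166 and 687 CPM in WT and 333, 232 and 442 CPM in the mutant, but 1 cell held 69.1% of the UMIs of the WT resident-type value.

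**Figure D2:**
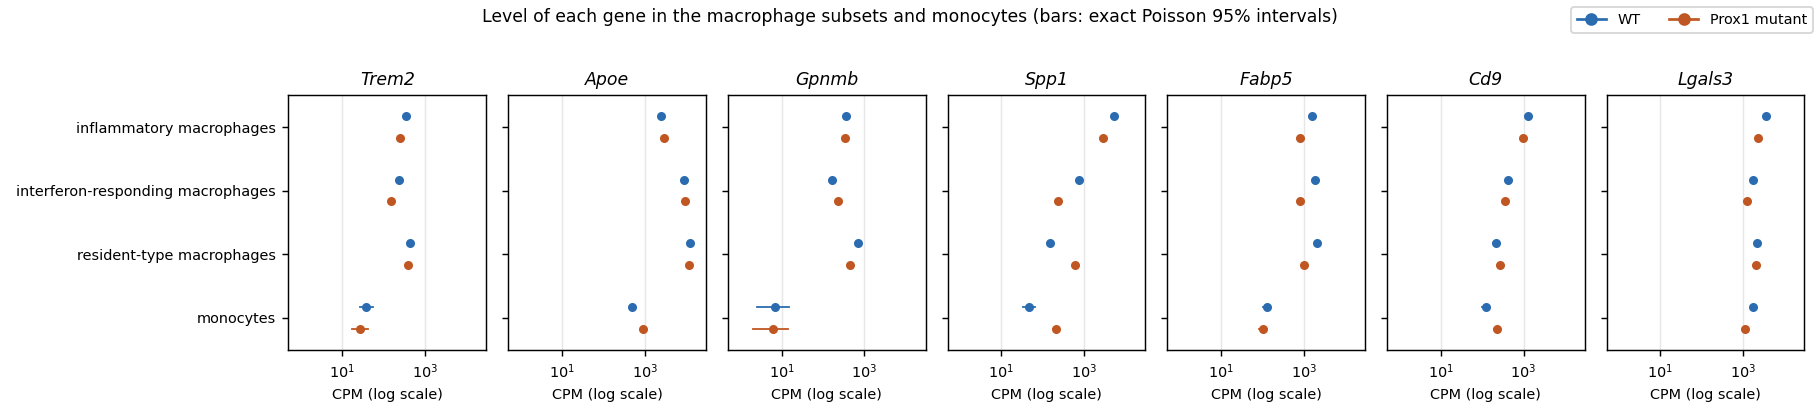
Level of each of the 7 genes in CPM (log axis) in the macrophage subsets and monocytes of each library, with 95% counting intervals. Spp1 and Cd9 lie highest in inflammatory macrophages, Apoe in resident-type macrophages, and Trem2 in resident-type macrophages, by less than 2-fold over inflammatory ones.

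Splitting the macrophages more finely was a step chosen after the data were seen. A first group held 67.5% of the inflammatory subset and was led by Mmp12, H2-M2, Spp1, Lpl and Atp6v0d2 (184 WT and 127 mutant cells). A second group held 29.8% of it (74 and 64 cells). It was led by Acta2, Slc1a2 and Slpi, with Nos2 and Il1a also among its 10 leading genes. Acta2 is a smooth muscle marker, and the paper lists it, with Col1a1, among genes raised in its fibrosis-associated macrophages. Col1a1 was instead among the 10 leading genes of the unnamed subcluster led by neutrophil genes (41 WT and 172 mutant cells). Which of these cells the paper's group matches was not tested. Trem2, Gpnmb, Spp1, Fabp5, Cd9 and Lgals3 were all higher in the first than in the second group in both libraries. The share of all genes going this way was not computed, so no result about the members is read from it. The first group was also deeper, with median depths of 35541.5 (WT) and 32021 UMIs (mutant) against 21537.5 and 23353 UMIs. The folds were 1.73 and 1.86 for Trem2, 8.52 and 2.01 for Gpnmb, 3.38 and 8.78 for Spp1, 2.03 and 2.43 for Fabp5, 1.37 and 1.36 for Cd9, and 2.0 and 2.41 for Lgals3, WT first. In the second group of the mutant, 1 cell held 67.0% of the Gpnmb UMIs. Spp1 stood at 6138 and 3947 CPM in the first group and at 1818 and 449 CPM in the second, WT first. The 449 CPM was below the 594 CPM of mutant resident-type macrophages, a value drawn up by few cells. Apoe differed in direction between the libraries, at 2098 CPM in the first and 4124 CPM in the second group in WT, and at 3090 and 2617 CPM in the mutant. The first group also held more Lpl, the lipoprotein lipase that frees fatty acids at the cell surface, at 1275 CPM (WT) and 1634 CPM (mutant).

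In WT, among the 3 named subsets, cells with many of the genes at once took the largest share in the inflammatory one. After thinning to 2000 UMIs, 57.9% of WT inflammatory macrophages (150 of 259, 51.6% to 64.0%) had a UMI of at least 5 of the 7 genes, against 24.0% of interferon-responding and 18.2% of resident-type ones. In the mutant the shares were 29.8% (59 of 198, 23.5% to 36.7%), 15.1% and 20.2%. The mutant resident-type interval, 12.8% to 29.5%, overlapped the inflammatory one, so no order between them is read there. All 7 genes were found in 3.54% of mutant inflammatory and 5.05% of mutant resident-type cells, against 4.25% and 0% in WT. Without thinning, where deeper cells show more genes, 95.4% of WT and 86.9% of mutant inflammatory macrophages reached 5 genes. After thinning, no B cell of either library reached 5 genes and 0% of WT and 1.52% of mutant monocytes did; without thinning, the shares were 0% and 1.68% of B cells and 15.9% and 7.25% of monocytes. The unnamed subcluster led by neutrophil genes had thinned shares at least as high as the inflammatory subset, 58.6% of 29 WT cells and 35.7% of 115 mutant cells, after 12 and 57 shallower cells were left out. Over all macrophages the thinned share was 39.6% in WT and 21.9% in the mutant. In WT inflammatory macrophages, pairs of members were mostly found together about as often as the product of their thinned single shares. For Cd9 and Lgals3 this was 86.5% against 85.7%, and for Trem2 and Apoe 29.0% against 30.2%. The widest gap was that of Gpnmb and Fabp5, 23.6% against 17.7%. Whether many genes per cell went beyond the single shares was not tested.

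**Figure D3:**
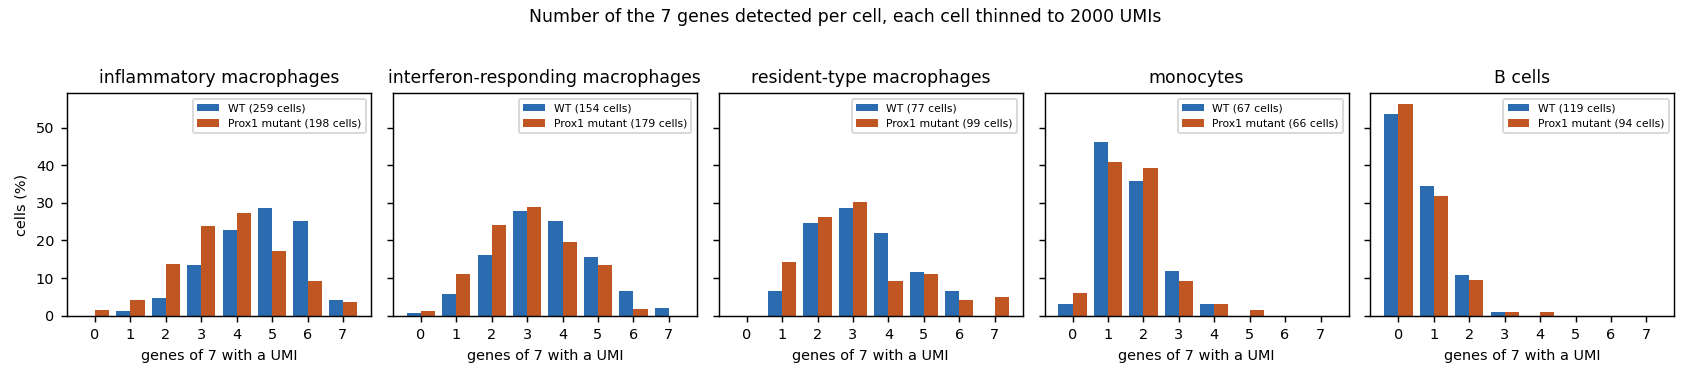
Share of cells (vertical axis, percent) by how many of the 7 genes had at least 1 UMI (horizontal axis) after thinning each cell to 2000 UMIs, for the 3 macrophage subsets, monocytes and B cells, with a bar per library. WT inflammatory macrophages sit furthest to the right with 57.9% at 5 genes or more, and mutant inflammatory macrophages have 29.8%.

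Between genotypes, 3 of the 7 genes were at least 1.5-fold lower in mutant than in WT macrophages, namely Spp1, Fabp5 and Lgals3, and none was 1.5-fold higher. Of 11328 genes with enough UMIs, 4.33% were at least 1.5-fold lower and 17.8% at least 1.5-fold higher. The median gene was itself log2 0.22 higher in the mutant, and among the 592 genes with at least 7576 UMIs, a level nearer to that of the members, 9.63% were 1.5-fold lower and 8.78% higher. The median of the members was log2 −0.57, and relative to the median gene 5 of the 7 were at least 1.5-fold lower. The share of all genes on that scale was not computed, so the count of 5 has no background beside it. Within subsets, 3 of the 7 were 1.5-fold lower in inflammatory macrophages (4.42% of all genes tested there), 3 in interferon-responding ones (7.28%) and 2 in resident-type ones (6.02%). Lower values were not particular to macrophages. Of members with enough UMIs, 3 of 5 were lower in endothelial cells (6.64% of genes), 5 of 6 in T cells (11.9%) and 3 of 5 in erythroid cells (8.93%). None was higher in these types. The WT T cells numbered 47, and as given above a single cell held most of their Gpnmb UMIs and a single cell most of their Fabp5 UMIs. In neutrophils 2 of 7 were higher (11.2%), and in epithelial cells 3 of 5 (26.0%), with none lower. The epithelial cells numbered 31 in WT and 329 in the mutant, where 1 cell held most of the Fabp5 UMIs. In endothelial cells Spp1 was 2.57-fold and Fabp5 1.65-fold lower.

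Spp1 had the largest difference of the members, from 3714 CPM in WT to 1636 CPM in mutant macrophages, 2.27-fold lower (log2 −1.18, −1.21 to −1.16). It was 1.81-fold lower in the inflammatory subset (log2 −0.85) and 3.2-fold lower in the interferon-responding subset (log2 −1.68). In the interferon-responding subset 22.7% of WT and 12.8% of mutant cells had a UMI after thinning, with intervals that overlapped those of B cells (16.0% and 8.51%). The resident-type subset went the other way, from 150 to 594 CPM (log2 1.98, 1.74 to 2.23), with single cells holding 31.0% of the WT and 35.2% of the mutant UMIs. The thinned share of resident-type cells with a UMI was lower in the mutant, 13.1% against 18.2% with overlapping intervals, so no order is read from that level.

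Fabp5 was the member at least 1.5-fold lower in each of the 3 named subsets, at 1685 CPM in WT and 817 CPM in mutant macrophages, 2.06-fold lower (log2 −1.04, −1.08 to −1.01). The fold was 1.93 in inflammatory, 2.36 in interferon-responding and 1.99 in resident-type macrophages, in the last with 31.5% of the WT UMIs in 1 cell. The resident-type difference fell short of 1.5-fold with merged libraries (log2 −0.27) and without the 5 cells with most Fabp5 UMIs (log2 −0.28). The thinned share of cells with a UMI was 64.5% in WT and 42.9% in mutant inflammatory macrophages, 51.9% and 41.9% in interferon-responding ones, and 45.5% and 34.3% in resident-type ones. Their intervals overlapped outside the inflammatory subset. They count cells of 1 library per genotype, so no difference between genotypes is read from them. Without thinning these shares were 88.5% and 83.4%, 75.3% and 72.1%, and 59.5% and 63.6%.

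Lgals3 was 3011 CPM in WT and 1844 CPM in mutant macrophages, 1.63-fold lower (log2 −0.71, −0.73 to −0.68). The inflammatory subset had 3562 and 2331 CPM (1.53-fold lower) and the interferon-responding subset 1762 and 1222 CPM (1.44-fold lower), while the resident-type subset had 2167 and 2080 CPM with an interval of the log2 ratio that reached from −0.13 to 0.01.

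Trem2 and Cd9 were lower in mutant macrophages by less than 1.5-fold. Trem2, at 328 CPM in WT macrophages, was 233 CPM in mutant ones, 1.41-fold lower (log2 −0.50, −0.56 to −0.43), and 1.40-fold and 1.56-fold lower in inflammatory and interferon-responding macrophages. In resident-type macrophages the interval of its log2 ratio included 0 (−0.29 to 0.05). Cd9 was 995 and 669 CPM, 1.49-fold lower (log2 −0.57, −0.61 to −0.53), which is close to the limit. Within subsets its difference was smaller, log2 −0.36 in inflammatory and −0.20 in interferon-responding macrophages, and log2 0.31 in resident-type ones.

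Gpnmb and Apoe were nearest to the bulk of genes. Gpnmb was 358 and 311 CPM (log2 −0.20, −0.26 to −0.14), with log2 −0.10 in the inflammatory subset, 0.48 in the interferon-responding subset and −0.64 in the resident-type subset, the last resting on the single WT cell named above. Apoe was the member with a higher level in the mutant, 5906 against 4492 CPM (log2 0.39, 0.38 to 0.41). Its log2 ratio was 0.24 in inflammatory, 0.08 in interferon-responding and −0.08 in resident-type macrophages. Relative to the median gene, it was 0.05 in the inflammatory and −0.02 in the interferon-responding subset, so no direction within subsets is read from these values. The median inflammatory macrophage held 32 Apoe UMIs in WT and 17 in the mutant, the reverse of the summed level.

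**Figure D4:**
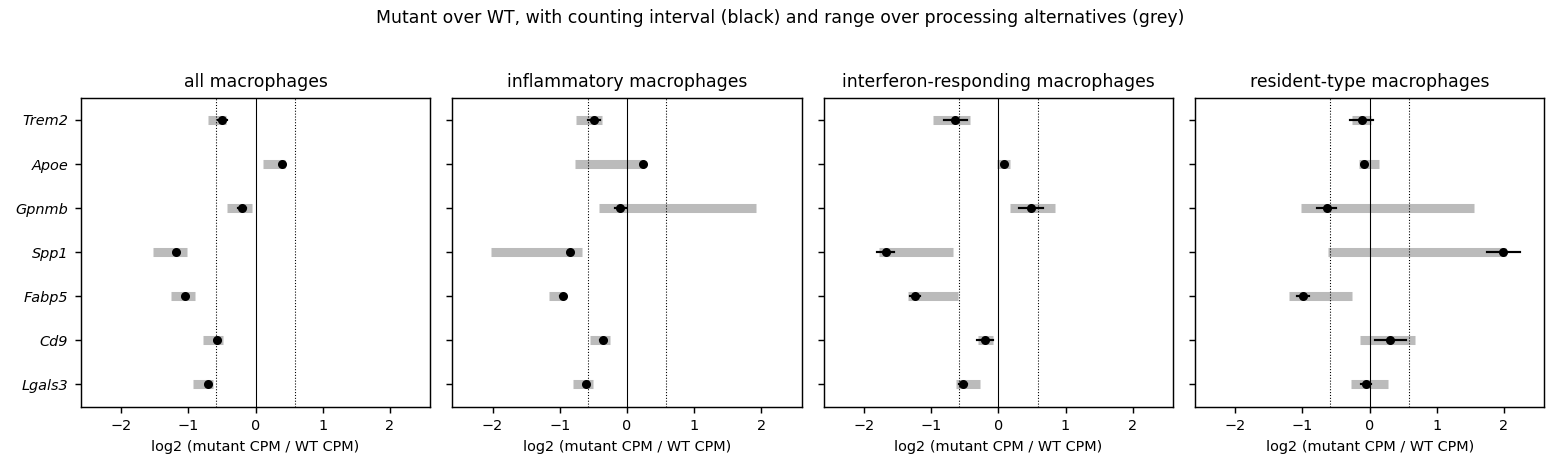
Log2 ratio of mutant to WT level for each of the 7 genes in all macrophages and in the 3 named subsets, with 95% counting intervals in black, the range over the processing alternatives as grey bands and dotted lines at the 1.5-fold limits. Spp1, Fabp5 and Lgals3 lie beyond the lower limit in all macrophages, and Spp1 in resident-type macrophages lies on the other side at log2 1.98 with a grey band that crosses 0.

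Shares of cells and markers of other cells also differed between the libraries. The inflammatory subset, the richest in Spp1 and Cd9, had 260 WT and 199 mutant cells although the mutant library held more macrophages. Over the 3 named subsets alone, Spp1 was 2.24-fold, Fabp5 1.98-fold and Lgals3 1.56-fold lower, and no other member passed 1.5-fold. Of 10999 genes tested there, 4.63% were at least 1.5-fold lower and 16.4% at least 1.5-fold higher. The 7 erythroid markers summed to 490 CPM in WT and 2326 CPM in mutant macrophages, and the 9 neutrophil markers to 2449 and 2868 CPM. In the inflammatory subset the erythroid sum was 66.9 and 974 CPM and the neutrophil sum 1001 and 1961 CPM, with the erythroid marker Klf1 at 0 in WT. The osteoclast list summed to 831 CPM in WT and 532 CPM in mutant macrophages, with Oscar at 0 in the mutant. The 6 osteoblast markers, from the other cells rich in Spp1, summed to 110 and 133 CPM. The part of these genes, and of the difference in depth, in the values of the members was not tested.

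The genes around the members were followed through 10 lists with 71 genes. Between inflammatory and resident-type macrophages, 63 of them had enough UMIs, 6 were at least 2-fold higher in the inflammatory subset in both libraries and 6 at least 2-fold lower, beside 5.46% and 6.72% of all genes tested. The higher ones were the receptors Trem1 and Trem3, Lpl, Fabp7, the protease inhibitor Cstb and the Cd9 partner Ptgfrn. Lpl was at 1039 CPM in inflammatory and 33.0 CPM in resident-type macrophages of WT and at 1290 and 213 CPM in the mutant. The lower ones were the phosphatase Inpp5d, the lipid handling genes Abcg1, Nceh1 and Pparg, the integrin subunit Itga9 and the tetraspanin Cd81. Pparg, a nuclear receptor for fatty acids, was 4.26 and 64.1 CPM in WT and 7.94 and 82.0 CPM in the mutant.

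Between genotypes, 68 of the 71 had enough UMIs in macrophages, 7 were at least 1.5-fold lower in the mutant and 10 at least 1.5-fold higher, beside 4.33% and 17.8% of all genes tested and 9.63% and 8.78% of the abundant ones. Of the 12 genes of the lysosomal list, 3 were lower and none higher. The proteases Ctsd and Ctsl went from 4210 to 1963 CPM and from 963 to 545 CPM. The protease inhibitor Cstb, listed with them, went from 1476 to 931 CPM. The others that were lower were Trem3, Apoc2, Fabp7 and the lysosomal tetraspanin Cd63, from 1581 to 755 CPM. Among the higher ones were Treml2, Treml4, Nr1h3, Pparg, the transcription factor Mitf (557 and 933 CPM), the osteopontin receptors Cd44 (1266 and 1977 CPM), Itgb3 and Itga4, and Cd81. Itgb3 was near the minimum, with 21 WT and 39 mutant UMIs (log2 0.81, 0.01 to 1.65). The adaptors and signalling partners of Trem2 passed the limit in 0 of 5 cases, with Tyrobp, the adaptor through which Trem2 signals, at 1644 CPM in WT and 1153 CPM in mutant macrophages.

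Genes with the most similar pattern were sought over 37 profiles (cell types and macrophage subsets of each library) among 13696 genes, by the Pearson correlation of log2(CPM + 5). The profiles share libraries and the subsets are parts of the macrophages, so the values only describe likeness. Trem2 was closest to Dpep2 (0.93), Cd300c2 (0.93) and 4930430E12Rik (0.92), Lgals3 to Tlr2 (0.94), Atp6v0e (0.92) and Tgfbi (0.92), and Gpnmb to Ctsd (0.86), Rab7b (0.83) and Pld3 (0.83). Fabp5 was closest to Tbc1d9 (0.85), Tnfrsf11a (0.85) and Atp6v1c1 (0.84), and Apoe to Dmxl2 (0.84), Acp2 (0.82) and Rab20 (0.81). Spp1 and Cd9, the members with their highest level outside macrophages, were closest to Tmem119 (0.84), Fam20c (0.77) and Nrp2 (0.75), and to Dubr (0.84), Tmco3 (0.82) and Klf7 (0.81). Among the members, the correlation was highest between Trem2 and Lgals3 (0.85) and between Trem2 and Fabp5 (0.82), and lowest between Cd9 and Lgals3 (0.13) and between Spp1 and Fabp5 (0.15).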

How the data were processed

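The authors aligned the reads and deposited 1 filtered matrix of UMI counts per library (mm10, Cell Ranger 7.0.1 per the labels); the labels name a v2 kit and the study's methods a v3.1 kit, and whether intronic reads were counted is not given in the sources used here. Barcodes with 500 genes or more, of whose UMIs fewer than 10% were mitochondrial, were normalised with sctransform 0.4.2 and integrated in Seurat 5.3.0 (R 4.3.3) over 3000 features without the 7 genes, then clustered with 200 components at resolution 1.5. Macrophages and monocytes were clustered again with 30 components at resolution 0.5. A cluster took a name when at least 3 of that type's markers were raised (2-fold, in 10% of cells). It lost the name when another type's markers held more of its 10 leading genes. Clusters shallow for their library also needed a marker of their type among those genes, while deeper ones did not. The macrophage clusters led by Arg1 (44 WT and 179 mutant cells) and by Malt1 (51 and 101 cells) had no listed macrophage marker there.

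CPM are the summed UMIs of a group over its total, with exact Poisson intervals, Clopper-Pearson intervals for shares and exact conditional intervals for ratios (scipy 1.17.1). A gene needed 50 UMIs over both libraries, and levels were called different past 1.5-fold between genotypes and 2-fold between subsets. Scrublet (scanpy 1.11.5) called 0 doublets automatically, so they were kept, and an alternative removed the highest scores. The genes named were the 7 members, the genes of 10 lists past the limits and the 3 most similar genes of each member; 1 gene of the lists is not reported here. The members and lists were chosen with earlier results of these data known. The calculations were tested on simulated data.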

Additional observations from a re-analysis of the deposited data

Results flagged for a closer look

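The Spp1 values of the genotypes lay in opposite directions in the macrophage subsets. The log2 ratio of mutant to WT was 1.98 in resident-type macrophages, −0.853 in inflammatory macrophages and −1.68 in interferon-responding macrophages. In resident-type macrophages 1 cell held 35.2% of the mutant UMIs, the thinned share of cells with a UMI was lower in the mutant (13.1% against 18.2%), and the ratio reversed under 3 processing alternatives. With 1 library per genotype the difference between these subsets was not tested.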

How the results depend on the processing

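No paired analysis was possible because each genotype has 1 library, and for the same reason no replicate could be left out. In all macrophages, the 7 members kept their direction and Spp1 (log2 −1.53 to −1.02), Fabp5 (−1.26 to −0.90) and Lgals3 (−0.92 to −0.63) stayed past 1.5-fold under each of the 16 alternatives that gave a value, while Cd9 passed it under 4 of them and Trem2 under 1. Relative to the median gene, 5 members were at least 1.5-fold lower, and with a limit of 2-fold, 2 were. With a stricter cell filter (1000 genes, 5% mitochondrial UMIs), 1 member was at least 2-fold higher and 4 were lower in inflammatory than in resident-type macrophages. At resolution 1.0 for macrophages 1 was higher and 3 were lower. There the inflammatory name fell on the cells rich in Nos2 and Il1a, and the Mmp12-led cells stayed unnamed. For none of these alternative settings was the share of all genes computed, so their counts of members have no background.

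Gpnmb in resident-type macrophages reversed to a log2 ratio of 0.14 with doublets removed, 0.0066 with the members among the clustering features, 0.84 with merged libraries, 0.49 as a mean over cells, 0.64 after thinning, 0.67 without the cell with most UMIs and 1.55 without 5 such cells. Spp1 in resident-type macrophages reversed to −0.33 with doublets removed, −0.085 at resolution 0.5 for all cells and −0.61 at resolution 0.2 for macrophages. The cause was not tested. The Spp1 difference between inflammatory and resident-type macrophages in the mutant reversed to −0.43 at resolution 1.0 for macrophages. There the inflammatory name fell on the cells rich in Nos2 and Il1a, so other cells were compared than in the main setting. Over 42 single values, 493 of 553 recomputed ratios kept their direction. The interferon-responding subset gave no value with merged libraries, at resolution 0.5 for all cells or at resolution 0.2 or 1.0 for macrophages. The named subsets alone, the median gene and the removal of 5 cells were chosen after the data were seen. Gpnmb was spread unevenly over cells, with 0 UMIs in the median macrophage of both libraries, and the values of few cells decide its level.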
